A study of Mus musculus with 3 samples.

Results

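Heat shock and small chaperone genes were followed in spatial transcriptome sections of mouse heart. The set holds 10 of the 32285 genes in the files, chosen by symbol: the inducible Hsp70 genes Hspa1a and Hspa1b, the small heat shock genes of the heart Hspb1, Hspb6, Hspb7 and Cryab, and Dnajb1, Hsph1, Hsp90aa1 and Hspd1. All 10 were detected in each section. The data were Visium libraries, made from cryosections 10 µm thick laid over an array of barcoded spots, each of which captures RNA from a patch of tissue that can hold several cells. There was 1 section from 1 mouse per condition, all C57BL/6 and supplied at 8 weeks of age. The Sham mouse received vehicle by gavage for 7 days and then the operation without ligation and reperfusion. The I/R mouse received vehicle for 7 days, then 30 min of ligation of the left anterior descending artery (LAD) and 24 h of reperfusion. The SBP mouse had the same ligation and reperfusion after 7 days of gavage with Shexiang Baoxin Pill (MUSKARDIA in the labels), a pill of traditional Chinese medicine.

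Heat shock proteins bind other proteins that have begun to unfold. The small heat shock proteins, HSPB1, HSPB6, HSPB7 and alphaB-crystallin (Cryab), hold such proteins without using ATP and are abundant in muscle, where they associate with actin, desmin and titin filaments. Hsp70, made from Hspa1a and Hspa1b, refolds proteins with the help of DNAJB1, an Hsp40 co-chaperone, and of HSPH1, which exchanges its nucleotide. Hsp90-alpha (Hsp90aa1) matures kinases and receptors, and Hsp60 (Hspd1) folds proteins inside mitochondria. Heat shock factor 1 (HSF1) induces several of these genes by binding inverted repeats of the bases GAA in their promoters, called heat shock elements. Tissue shown by the sections can change in its mixture of cells, and fewer cells of a type and less RNA per cell cannot be told apart in spots.

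The promoters were searched for the letters of such an element. RefSeq promoters (GRCm38.p6, 250 bases before to 50 bases after a start, 300 in all) were found for 8 members, in 12 entries. No entry was found for Cryab and Hsp90aa1, which were therefore not searched. The letters GAANNTTC and TTCNNGAA, each its own reverse complement and so read on both strands at once, were used. They occurred in 7 of the 12 entries, which belong to 6 members, and in 15.1% of all 32851 promoter entries. The entries of Hspa1a and Hspa1b are near copies of each other. The 2 entries of Hsph1 overlap in most of their length, so the same matches are counted in both. Overlapping runs, in which the 2 forms share a unit and make 3 units in alternation, occurred in 3 of the 12 entries, from Hsph1 and Hspd1, and in 0.603% of all entries. The run of Hsph1 is 1 element seen in both of its entries. It begins after the start, at base 37 or 16 by entry. A further TTCNNGAA match of Hsph1, at -33 or -54, is not shown. In Hspd1, 2 such runs overlap in 1 of its promoter entries, and its other entry held no match. The windows below are 5′ to 3′ on the strand of the gene, with the matched letters in capitals. They belong to members that differed from one another in their response. A link between a match and a response was not tested.
Hspa1a, chr17:34972213-34972300, minus strand: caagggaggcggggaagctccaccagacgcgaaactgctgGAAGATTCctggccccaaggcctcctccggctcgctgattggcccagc
Hspb1, chr5:135887762-135887849, plus strand: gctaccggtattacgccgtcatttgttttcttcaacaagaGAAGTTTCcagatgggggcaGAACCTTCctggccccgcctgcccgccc
Hsph1, chr5:149636266-149636340, minus strand: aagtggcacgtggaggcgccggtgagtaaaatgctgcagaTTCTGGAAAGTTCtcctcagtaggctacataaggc
Hspd1, chr1:55088019-55088116, minus strand: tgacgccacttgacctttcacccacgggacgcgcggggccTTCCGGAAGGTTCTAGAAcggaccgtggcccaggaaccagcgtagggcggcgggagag

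The corresponding window of Hspa1b, chr17:34959295-34959382 on the minus strand, matched that of Hspa1a in all 88 bases. Hspb6 held 1 match in 1 of its promoter entries, and no match was found in the windows of Hspb7 and Dnajb1. A match describes these letters only and is not evidence of binding.

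Hspa1a (chr17:34969190-34972156) and Hspa1b (chr17:34956436-34959238) are neighbouring copies on the minus strand. Of the windows of 91 bases (the length of read 2) along their transcripts, 49.1% of those of Hspa1a also occur in Hspa1b. In the last 500 bases, where this 3′ chemistry places most reads, 0 of 410 windows were shared in either direction. The 2 genes are given both singly and as a sum. Reads from shared windows further upstream could not be assigned to 1 copy, and whether the sum includes them was not tested. Hspa1a also overlaps Gm20481 on the opposite strand by 2225 bases, and Cryab overlaps Hspb2 on the opposite strand by 1030 bases (GENCODE M21).

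After quality filtering the sections held 2234 (Sham), 2082 (I/R) and 1960 (SBP) spots with 25118258, 30238530 and 21631280 unique molecular identifiers (UMIs), each the count of 1 captured transcript. Levels are UMIs summed over spots per 1000000 UMIs (CPM), which are not scaled to gene length, so levels of different genes are not compared. Cardiomyocyte markers (Ttn, Pln, Tnnt2, Tnni3, Myh6, Actc1) marked all 3 sections as myocardium, at 26526, 20289 and 23143 CPM in sum. The cell mixture differed between sections. Neutrophil markers summed to 27.2, 236 and 115 CPM, macrophage markers to 467, 964 and 531 CPM, and smooth muscle and pericyte markers to 378, 305 and 192 CPM in Sham, I/R and SBP. All 4 neutrophil markers and 4 of 5 macrophage markers were past 1.5-fold in I/R over Sham, where 23.2% of all genes were. Their part in the section values that follow was not tested. The atrial list summed to 461, 1149 and 1384 CPM, nearly all of it Nppa, while Myl7 and Sln had between 0 and 4 UMIs per section. Of the T cell and B cell markers none reached 50 UMIs in 2 sections together. Between 1207 and 1568 spot barcodes were shared by 2 sections, since these barcodes encode positions on the slide. With 1 section per condition no p-value is given. Intervals are 95% and cover counting error only, and a gene is called higher or lower when it is past 1.5-fold and its UMIs in both groups add up to 50 or more.

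In I/R, 3 of the 4 small genes stood higher than in Sham, and Hspb6 did not. Hspb1 was at 209, 573 and 349 CPM in Sham, I/R and SBP. It was highest in I/R and lowest in Sham, a log2 ratio between these of 1.46 (95% interval 1.412 to 1.501). Cryab was at 1996, 3448 and 2437 CPM, in the same order of sections, with a log2 ratio of 0.79 (0.77 to 0.80). Hspb7 was at 379 CPM in Sham and at 657 and 660 CPM in I/R and SBP. The 2 injured sections thus lay close together for Hspb7, with log2 ratios over Sham of 0.79 and 0.80. Hspb6, which encodes HSP20, was at 466, 467 and 501 CPM, and its log2 ratio of I/R over Sham was 0.00 (-0.03 to 0.04). It became -0.11 to -0.24 without mitochondrial UMIs or with scaling factors. The 3 further small heat shock genes, Hspb2, Hspb3 and Hspb8, had log2 ratios of 0.13, -0.11 and -0.38 for I/R over Sham, with 0 of 3 called on total UMIs and Hspb8 called lower with trimmed mean of M-values (TMM) factors, a scaling that moved every log2 ratio of this comparison by -0.23.

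The inducible Hsp70 genes were at low counts. Hspa1a had 72 UMIs in Sham (2.87 CPM), 125 in I/R (4.13 CPM) and 126 with SBP (5.83 CPM). Hspa1b had 76 (3.03 CPM), 181 (5.99 CPM) and 136 UMIs (6.29 CPM). In CPM both were lowest in Sham and highest in SBP, although I/R and SBP lay close together for Hspa1b, and the sum stood at 5.89, 10.1 and 12.1 CPM. The log2 ratio of the sum was 0.78 (0.49 to 1.07) for I/R over Sham and 1.04 (0.74 to 1.34) for SBP over Sham. For SBP over I/R it was 0.26 (0.02 to 0.50), whose lower end lies near 0. Reads of the sum came from few spots: in spots thinned to 6500 UMIs each, 3.05%, 6.49% and 6.58% of spots held a UMI in Sham, I/R and SBP (5.82%, 12.3% and 10.8% before thinning).

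The Hsp70 partners Dnajb1 and Hsph1 showed smaller or opposite differences. Dnajb1 was at 17.7, 21.3 and 23.1 CPM in Sham, I/R and SBP, log2 ratios over Sham of 0.27 (0.09 to 0.45) and 0.38 (0.20 to 0.57), neither past 1.5-fold. Hsph1 ran the other way, at 46.1, 40.1 and 31.7 CPM, with log2 ratios over Sham of -0.20 (-0.32 to -0.08) in I/R and -0.54 (-0.68 to -0.40) in SBP. Hsp90aa1 was at 87.7, 204 and 128 CPM, highest in I/R, with a log2 ratio over Sham of 1.22 (1.15 to 1.29). Hspd1 was at 179, 198 and 152 CPM. Its log2 ratio of I/R over Sham was 0.15 on total UMIs but -0.084 with TMM factors and -0.091 with median-of-ratios size factors, so its direction depends on the scaling.

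**Figure D1:**
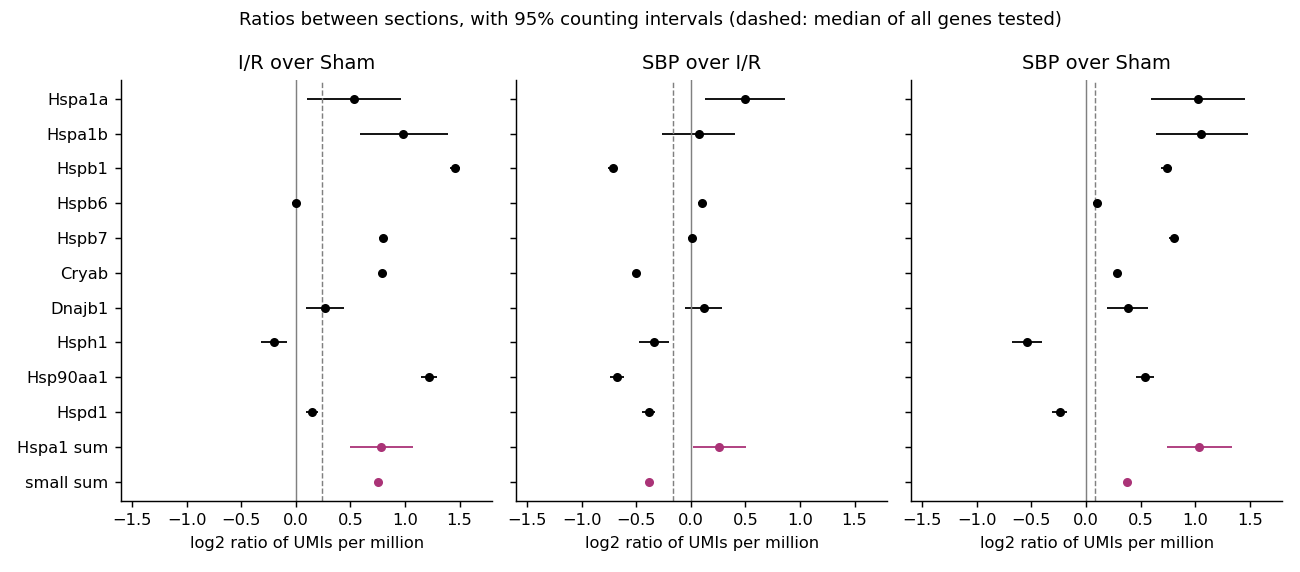
Log2 ratios of CPM (x axis) of the 10 members and of the 2 sums (y axis) between sections, 1 panel per comparison, with 95% counting intervals. Hspb1 and Hsp90aa1 lie farthest right for I/R over Sham (1.46 and 1.22) and farthest left for SBP over I/R (-0.72 and -0.68), and the dashed line is the median of all genes tested (0.24, -0.17 and 0.08 from left to right).

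For I/R over Sham, 5 of the 10 members were called higher (Hspa1b, Hspb1, Hspb7, Cryab and Hsp90aa1) and 0 lower, with a median over all genes tested of 0.24. Of all 12231 genes, 23.2% were called higher and 3.49% lower. TMM factors left 3 members called higher (Hspb7 and Cryab dropped out), beside 13.0% of genes higher and 9.12% lower. The members that stayed past 1.5-fold were Hspa1b, Hspb1 and Hsp90aa1.

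For SBP over I/R, 0 members were called higher and 2 lower, Hspb1 at -0.72 (-0.76 to -0.68) and Hsp90aa1 at -0.68 (-0.74 to -0.61). Cryab had -0.50 (-0.52 to -0.49), Hspd1 -0.39 and Hsph1 -0.34, while Hspb6, Hspb7, Hspa1b and Dnajb1 lay between 0.01 and 0.12. Hspa1a had 0.49 (0.13 to 0.86). Over all 12151 genes the median was -0.17, and 1.95% were called higher and 13.8% lower. TMM factors moved the ratios by 0.16, after which 0 members were lower and 1 (Hspa1a) was higher, beside 8.48% and 4.14% of all genes. For SBP over Sham, 4 members were called higher (Hspa1a, Hspa1b, Hspb1 and Hspb7) and 0 lower, with 5.31% of 11768 genes higher and 2.77% lower. With TMM factors Hsph1 was called lower, beside 3.79% of all genes. The 3 comparisons share their sections and are not independent of one another.

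The other genes of the chaperone system gave the frame for these values. Of the 8 subunits of the cytosolic chaperonin CCT, which folds actin and tubulin, 5 were called higher in I/R than in Sham, with a median log2 ratio of 0.68, where 23.2% of all genes were called higher. With TMM factors 2 of 8 (Cct2 and Cct6a) were called, beside 13.0% of all genes. Cct5 was at 92.8, 157 and 124 CPM in Sham, I/R and SBP. Of 9 other Hsp70 and Hsp110 genes 2 were called higher on total UMIs, and 1 higher and 2 lower (Hspa4l and Hspa12a) with TMM factors. The constitutive Hspa8, at 552, 886 and 671 CPM, was called on total UMIs only. Hsp40 genes (1 of 12 higher), Hsp90 with its co-chaperones (2 of 11), the factors that exchange or release Hsp70 nucleotide (1 of 8) and mitochondrial chaperones and proteases (1 of 9) had medians of 0.09, 0.33, 0.12 and -0.18, with 0 called lower on total UMIs. With TMM factors the counts higher were 0 of 12, 1 of 11, 0 of 8 and 0 of 9, and Fkbp4 and Clpx were called lower. Cct2, Cct6a, Hspa12a and Clpx lie outside the rule for named genes and were chosen after their values were seen. The gene of HSF1 itself was at 5.93, 9.79 and 5.87 CPM, called higher in I/R than in Sham on total UMIs and not with TMM factors. In SBP over I/R, 0 of the 8 CCT subunits were called in either direction, with a median of -0.35.

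Spots were then divided by Ankrd1, a cardiomyocyte gene of stretch and injury that the study used to tell infarct from other areas. A spot was Ankrd1-high when its Ankrd1 UMIs per 10000 UMIs were above the 95th percentile of the Sham spots, 27.0. By this rule 112 (5.01%), 479 (23.0%) and 326 (16.6%) spots of Sham, I/R and SBP were high. High spots were deeper, with medians of 14927, 17348 and 11990 UMIs against 10502, 14103 and 10453 in other spots, and less mitochondrial (45.2%, 40.6% and 43.9% of UMIs against 48.9%, 45.7% and 46.9%). Cardiomyocyte markers were lower in high than in other spots of each section, by log2 ratios of their sum of -0.43, -0.36 and -0.34. Neutrophil markers stood at 58.5 against 24.8 CPM in Sham, 269 against 224 in I/R, 263 against 82.6 with SBP. In I/R only S100a8 and S100a9 were higher in high spots. Csf3r was at 26.3 against 27.2 CPM and Retnlg at 0.979 against 1.45 CPM, with intervals of their ratios that held 0. The part of the neutrophil markers in the values that follow was not tested.

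Hspb1, Cryab and Hspb7 were past 1.5-fold higher in the Ankrd1-high spots of both injured sections than in their other spots, and Hspb6 was not. Hspb1 stood at 1145 CPM in high and 362 CPM in other spots of I/R, and at 798 and 250 CPM in SBP. Its log2 ratios were 1.66 (1.62 to 1.71) and 1.68 (1.61 to 1.74), rank 23 of 11408 genes in I/R and rank 22 of 10469 in SBP. In Sham the same ratio was 0.64 (0.52 to 0.77), from 313 against 201 CPM. The difference between the log2 ratios in I/R and Sham was 1.02 (0.89 to 1.15), and between those in SBP and I/R 0.02 (-0.06 to 0.09).

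Cryab stood at 3144 against 1905 CPM in Sham, 5969 against 2514 in I/R, and 4099 against 2069 with SBP. High spots exceeded other spots in each section, most in I/R, with log2 ratios of 0.72, 1.25 and 0.99. Hspb7 had log2 ratios of 0.52, 0.93 and 0.65. Hspb6 had 0.20, 0.28 and 0.19, close to the medians of all genes in these comparisons (0.31, 0.24 and 0.21).

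**Figure D2:**
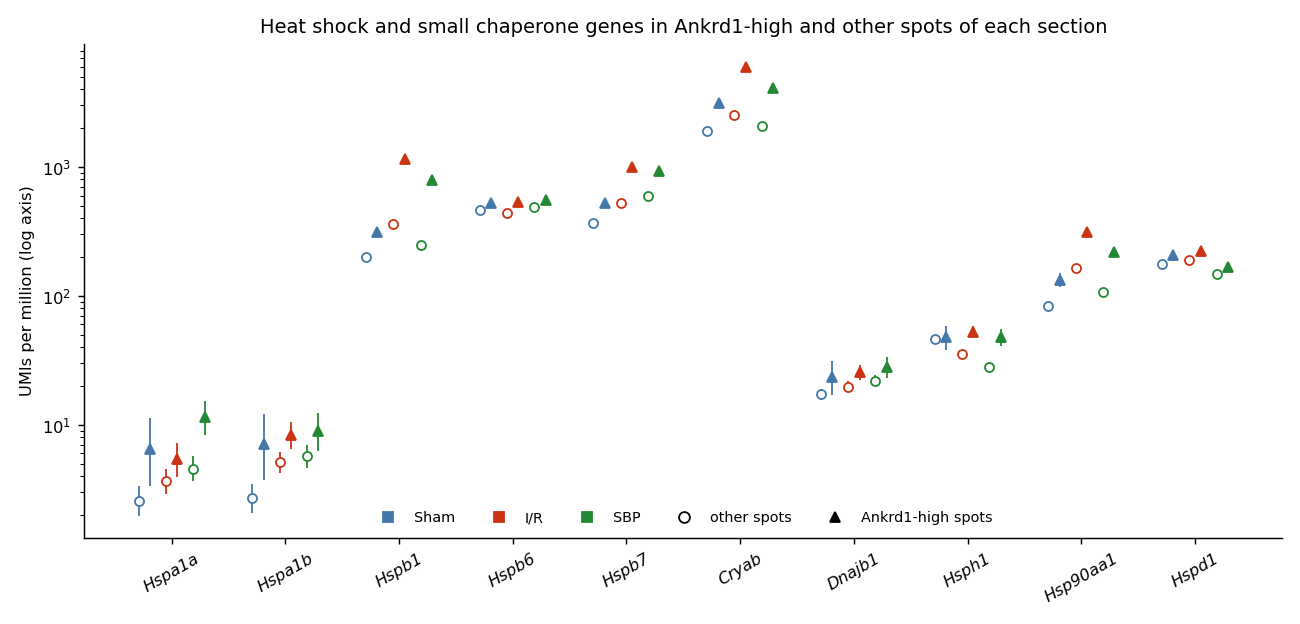
CPM (log axis) of the 10 members in Ankrd1-high spots (filled triangles) and other spots (open circles) of each section, with 95% Poisson intervals. Hspb1 in I/R stands at 362 CPM in other and 1145 CPM in high spots, while Hspb6 lies between 442 and 557 CPM in all 6 groups of spots.

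Hsp90aa1 stood at 133 against 84.1 CPM in Sham, 311 against 165 in I/R, and 219 against 107 with SBP, log2 ratios of 0.66, 0.92 and 1.03. For Hsph1 in Sham the interval held 0, with 47.7 against 46.0 CPM (log2 ratio 0.05, -0.28 to 0.37). In I/R it was at 52.6 against 35.5 CPM and in SBP at 47.7 against 28.2 CPM. On total UMIs the high spots of the 3 sections thus lay between 47.7 and 52.6 CPM, and the sections differed in their other spots. Hspd1 had log2 ratios of 0.22, 0.24 and 0.17 and Dnajb1 of 0.43, 0.37 and 0.35 in Sham, I/R and SBP.

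Of the 10 members, 5 were called higher in the high spots of Sham (28.3% of all 10642 genes were), 5 in I/R (13.6% of 11408), 7 with SBP (16.6% of 10469), and 0 were called lower (6.08%, 3.88% and 5.02% of genes). In Sham these were Hspa1a, Hspa1b, Hspb1, Cryab and Hsp90aa1. The count of 5 in Sham became 3 without mitochondrial UMIs, a setting for which the share of all genes is not given. In I/R Hspb7 took the place of Hspa1a, and in SBP Hspb7 and Hsph1 joined the 5 members called in Sham. Of the CCT subunits, 5, 6 and 6 of 8 were higher in the high spots of Sham, I/R and SBP, with medians of 0.61, 0.66 and 0.71. Mitochondrial chaperones and proteases, called in 1, 0 and 0 of 9, had medians of 0.15, 0.06 and 0.07.

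Levels were also read along 6 bins of Ankrd1, set at percentiles of the Sham spots and kept the same in each section. In the lowest bin (up to the 50th percentile) Cryab stood at 1733, 1698 and 1642 CPM in Sham, I/R and SBP. In the highest bin (above the 99th percentile) it stood at 3604, 6772 and 4597 CPM. On total UMIs the sections therefore lay close together at low Ankrd1 and parted at high Ankrd1. In the lowest bin SBP (1614 to 1671) still stood below Sham (1709 to 1757). The bins are not given under another scaling, and TMM factors moved log2 ratios of I/R over Sham by -0.23. Hspb1 was at 185, 198 and 157 CPM in the lowest bin and at 372, 1334 and 978 CPM in the highest. The Ankrd1 level of the highest bin was itself alike, at 4704, 4735 and 4621 CPM.

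Hspb7 stood further apart than Cryab in the lowest bin, at 324, 413 and 497 CPM, with both injured sections above Sham. Hspb1 in that bin stood lower in SBP (157 CPM, 148 to 166) than in Sham (178 to 193) and I/R (189 to 207). Hsph1 was at 47.5, 25.5 and 20.0 CPM in the lowest bin and at 48.7, 48.2 and 44.1 CPM in the highest. Hsp90aa1 was at 74.6, 93.2 and 69.5 CPM in the lowest bin and at 138, 326 and 205 CPM in the highest. The highest bin of Sham held 23 spots.

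**Figure D3:**
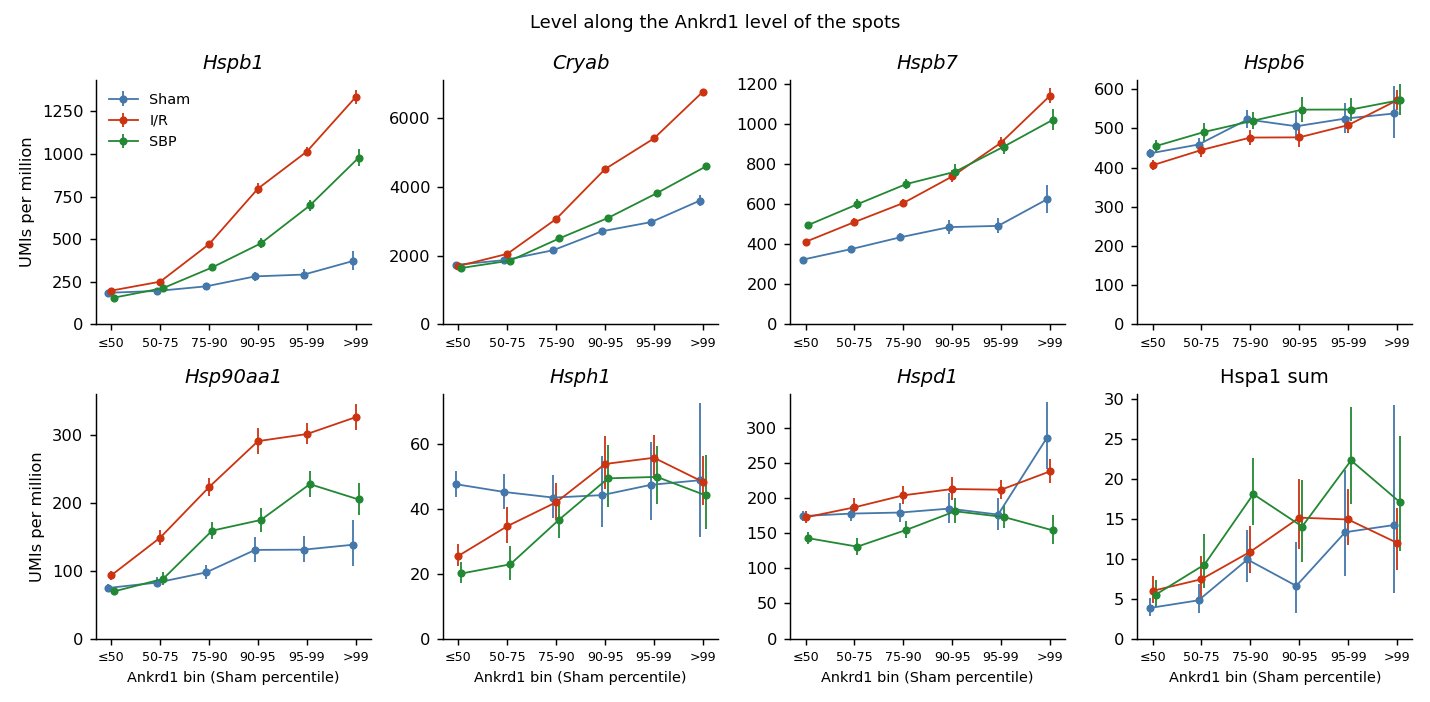
CPM (y axis) along 6 bins of Ankrd1 per 10000 UMIs at the 50th, 75th, 90th, 95th and 99th percentiles of the Sham spots (x axis), with 95% Poisson intervals. Cryab starts at 1733, 1698 and 1642 CPM in Sham, I/R and SBP and ends at 3604, 6772 and 4597 CPM, whereas Hsph1 differs at low Ankrd1 and ends at 48.7, 48.2 and 44.1 CPM.

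Compared within a kind of spot, Hspb1 remained higher in I/R than in Sham both in high spots (log2 ratio 1.87, 1.75 to 1.99) and in other spots (0.85, 0.80 to 0.90). Cryab had 0.92 and 0.40. The other spots were not matched for Ankrd1. Its own log2 ratio of I/R over Sham was 0.47 (0.44 to 0.50) in other spots, against 0.09 in high spots. In the lowest Ankrd1 bin, Hspb1 and Cryab differed less between I/R and Sham than in other spots as a whole. How far Ankrd1 accounts for the ratios in other spots was not tested. For SBP over I/R, Hspb1 had -0.52 in high and -0.54 in other spots, and Cryab -0.54 and -0.28. Fibroblast markers in high spots summed to 1496, 919 and 593 CPM in Sham, I/R and SBP, and their part in these differences was not tested. The markers did not move alike. Dcn, Col1a2 and Col3a1 fell in that order of sections, Col3a1 from 684 to 419 and 205 CPM. Fbln1 was lowest in I/R (75.9, 31.8 and 37.3 CPM), and Pdgfra was lowest in Sham (24.9, 48.8 and 35.7 CPM).

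The inducible genes were then set against the small genes, a ratio in which the library total cancels. There were 148 Hspa1 UMIs for 76598 small-gene UMIs in Sham, 306 for 155555 in I/R, and 262 for 85394 with SBP. This gave 1.93 (1.63 to 2.27), 1.97 (1.75 to 2.20) and 3.07 (2.71 to 3.46) Hspa1 UMIs per 1000 small-gene UMIs, alike in Sham and I/R and higher in SBP. The log2 ratio of these ratios was 0.03 (-0.26 to 0.31) for I/R over Sham, 0.64 (0.40 to 0.88) for SBP over I/R and 0.67 (0.38 to 0.96) for SBP over Sham. It stayed between 0.43 and 0.88 for SBP over I/R when either Hspa1 gene was used alone or when Hspb1 or Cryab was left out. Hspb1 and Cryab were left out singly, not together. They are the small genes that stood lower in SBP than in I/R (log2 ratios -0.72 and -0.50). Cryab made up 104256 of the 155555 small-gene UMIs of I/R. Hspb6 and Hspb7 had 0.10 and 0.01, and a higher ratio against Hspb6 and Hspb7 alone was not shown.

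By kind of spot the ratio went different ways. In Sham it was 3.00 in high and 1.802 in other spots, a log2 difference of 0.74 (0.12 to 1.36) that rests on 25 Hspa1 UMIs in 19 high spots. In I/R it was 1.58 in high and 2.29 in other spots, a log2 difference of -0.53 (-0.87 to -0.19). High over other, the small sum had a log2 ratio of 1.17 there and the Hspa1 sum 0.64 (0.29 to 0.98). In SBP it was 3.19 and 3.02, a log2 difference of 0.08 (-0.30 to 0.46). In level, the Hspa1 sum stood at 13.6 against 5.29 CPM in Sham, 13.7 against 8.79 in I/R, and 20.4 against 10.3 with SBP. It was higher in high spots of all 3 sections. Along the Ankrd1 bins of I/R it was at 15.1 CPM between the 90th and 95th percentiles, which count as other spots. It was at 14.9 and 12.0 CPM in the bins above. In SBP it was at 18.1, 14.0, 22.3 and 17.1 CPM from the 75th percentile upward. In Sham it was at 9.90, 6.59, 13.3 and 14.2 CPM in the same bins. The intervals of these bins overlap within each section. For Hspa1b alone the direction in I/R and SBP turned when each section's own 95th percentile of Ankrd1 was the limit. When Nppb divided the spots in place of Ankrd1, the Hspa1 sum and the small sum of I/R had similar log2 ratios. The lower ratio in high spots of I/R therefore depends on the use of Ankrd1.

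**Figure D4:**
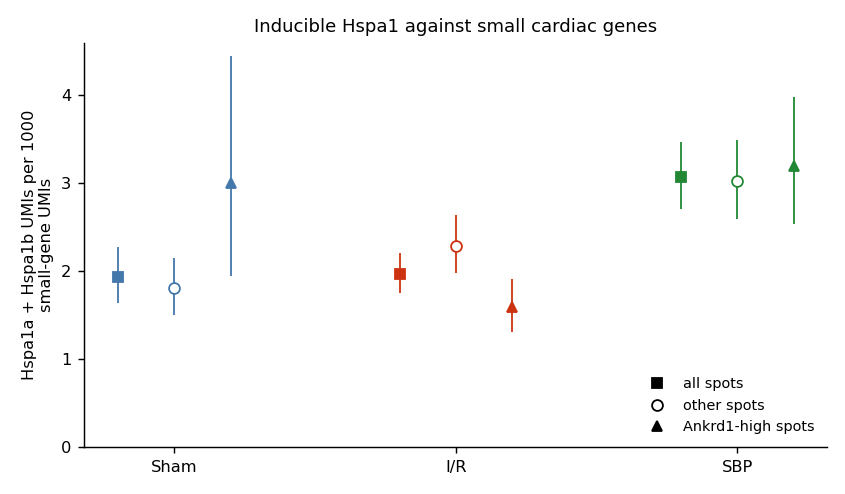
Hspa1a and Hspa1b UMIs per 1000 UMIs of Hspb1, Hspb6, Hspb7 and Cryab (y axis) in all, other and Ankrd1-high spots of each section (x axis), with 95% exact binomial intervals. The ratio in all spots is 1.93, 1.97 and 3.07 in Sham, I/R and SBP, and within I/R it is lower in high (1.58) than in other spots (2.29).

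Correlations among Hspb1, Cryab and Hsp90aa1 over spots were higher in I/R and SBP than in Sham. After each spot was thinned to 6500 UMIs, Pearson's r over spots of log2(1 + UMIs) between Hspb1 and Cryab was 0.12 over 2102 spots of Sham, 0.69 over 1880 spots of I/R and 0.52 over 1747 spots of SBP. Between Hspb1 and Hsp90aa1 it was 0.09, 0.45 and 0.30. Thinning made depth equal but not the counts of these genes. The median of Hspb1 was 1, 2 and 1 UMIs per thinned spot in Sham, I/R and SBP. Hsp90aa1 was seen in 39.7%, 58.6% and 48.4% of thinned spots. The part of these counts in the values of r was not tested. Hspb6 had r between -0.15 and 0.20 with the other members in each section. Spots of a section share a library and neighbours, so these are descriptions. The Hspa1 sum had r of at most 0.14 with any single member outside the pair, which in counts this sparse is not read as a pattern.

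**Figure D5:**
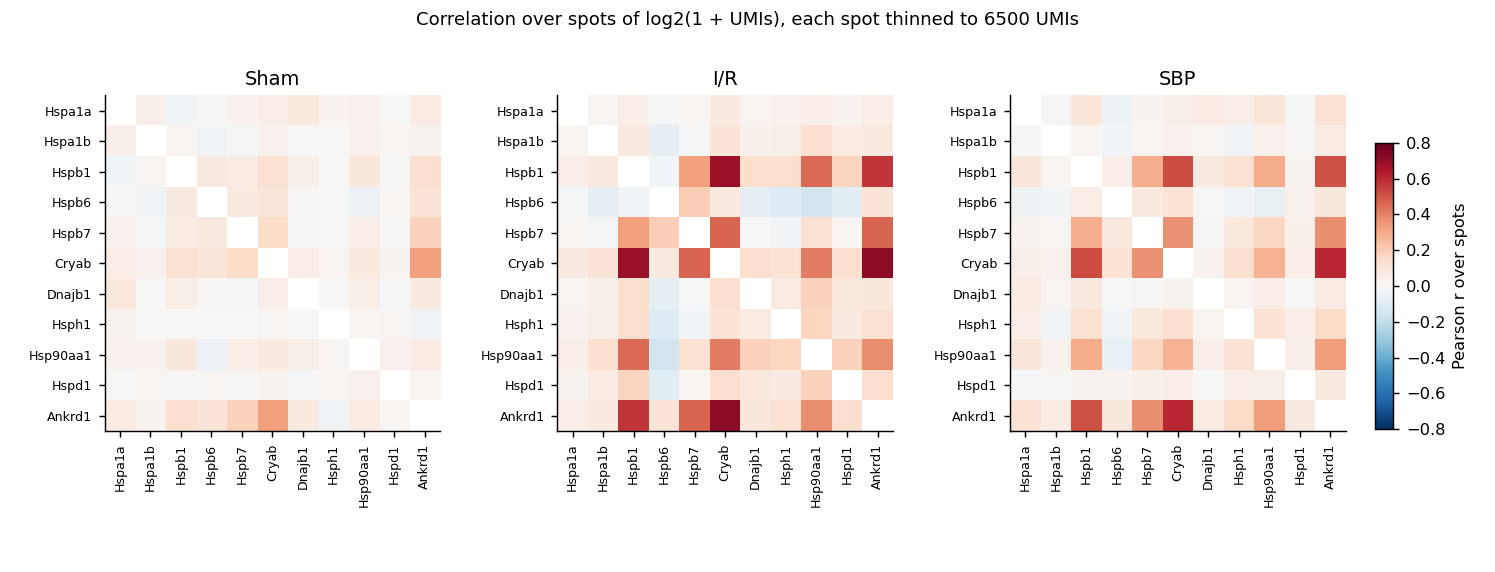
Pearson's r over spots (colour, from -0.8 to 0.8) between the members and Ankrd1 in each section, after thinning to 6500 UMIs per spot. Hspb1 and Cryab are at 0.12, 0.69 and 0.52 in Sham, I/R and SBP, and the rows of Hspa1a and Hspa1b are pale in each section.

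Among genes with at least 500 thinned UMIs, members left out, those most like the sum of the small genes over spots were Ankrd1 (r 0.37), Clu (0.27), Fhl1 (0.27), Timp1 (0.25) and Des (0.24) in Sham. In I/R they were Ankrd1 (0.73), Des (0.72), Nppb (0.68), Fhl1 (0.68) and Xirp2 (0.65). With SBP they were Ankrd1 (0.65), Nppb (0.57), Fhl1 (0.56), Des (0.54) and Rtn4 (0.50). Des encodes desmin, the muscle intermediate filament that alphaB-crystallin binds, and Nppb the natriuretic peptide BNP. Ankrd1, Fhl1 and Des were among the 5 in each section. The genes most like the Hspa1 sum had r of at most 0.20: Actb, Lgals3, Spp1, Rsrp1 and S100a6 in Sham, Eef1a1, S100a6, Myl6, Vim and Lgals1 in I/R, and Eef1a1, Tmsb4x, S100a4, Rpl41 and Arpc1b in SBP.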

How the data were processed

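Visium libraries of 1 Sham, 1 I/R and 1 SBP heart section were analysed. The authors deposited unnormalized UMI counts per gene for the spots lying on tissue. Space Ranger 1.3.0 stands in the file headers, and mm10 in the submitters' processing notes. The paper states another version and a human reference, while the files list 32285 mouse genes, of which 32158 identifiers were found in GENCODE M21. A spot needed 200 detected genes to be kept, which removed 3, 1 and 2 spots.

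The members and lists were chosen with earlier results of these data known. Besides the 10 members, of every list at most the 4 genes with the most UMIs were named, and the 5 genes most like each sum. Exceptions were Cct2, Cct6a, Hspa12a, Clpx, Fos, Egr1 and Npr3, and the cardiomyocyte and fibroblast markers, which were named in full. The genes called higher or lower by 1.5-fold had at least 50 UMIs in both groups together. Intervals (95%) were exact Poisson for levels, exact conditional binomial for ratios, exact binomial for shares and Wald on log odds for ratios of ratios. They cover counting error only, and p-values cannot be had from 1 section per condition. Shares and correlations used spots thinned to 6500 UMIs (seed 1), which left out 132, 202 and 213 shallower spots. Levels used unthinned counts. No doublet detection, clustering or cell type naming was run on spots.

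Ratios were tested on simulated data for I/R over Sham, where 98% of 100 genes changed 2-fold and 100% of 100 genes changed 4-fold were called, as were 1.21% of 12031 unchanged genes. The simulated counts held counting error only, without variation between mice or a shift of the median of all genes. The 1.21% is therefore not a rate of false calls for these sections. Alternatives were other scalings, spot filters and weights, Ankrd1 thresholds, Nppb in place of Ankrd1, and other members of the sums. Computations used Python 3.11.15, numpy 2.4.6, scipy 1.17.1, pandas 2.3.3, matplotlib 3.10.9, R 4.3.3 and edgeR 4.0.16 (TMM factors only). Lists of immediate early, clock, cold-induced, injury, blood, endothelial and monocyte genes are given in the closing section.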

Additional observations from a re-analysis of the deposited data

Results flagged for a closer look

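The ratio of Hspa1 to small-gene UMIs in Ankrd1-high over other spots went in opposite directions in I/R (log2 -0.53, -0.87 to -0.19) and in Sham (0.74, 0.12 to 1.36), a difference of -1.27. It was picked out because both intervals exclude 0 on opposite sides. The difference itself was not tested across mice, since each condition has 1 section, and the Sham value rests on 25 Hspa1 UMIs with at most 3 in 1 spot. In I/R the high spots held 112 Hspa1 UMIs in 92 of 479 spots. With the 90th percentile of Sham as the limit the values were 0.42 in Sham and -0.38 in I/R, and with the 99th percentile 0.54 and -0.83. These are given without intervals, so they do not show that the Sham value excludes 0 at either limit. Above the 99th percentile Sham held 7 Hspa1 UMIs in 23 spots. With Nppb in place of Ankrd1, the Hspa1 sum and the small sum of I/R had similar log2 ratios, given in the next section. The I/R value therefore depends on the gene that divides the spots.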

How the results depend on the processing

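Of 798 values recomputed under the alternatives, 571 were counted as the same, 221 as moved and 6 as reversed. Counted by sign alone, 18 changed. In 12 of these the interval of the reported value held 0, among them Hspb6 in I/R over Sham and Hsph1 in high over other spots of Sham. In the other 6 it did not. Hspd1 in I/R over Sham became -0.084 with TMM factors and -0.091 with median-of-ratios size factors. Hspa1b in high over other spots became -0.45 in I/R and -0.11 in SBP with the 95th percentile of each section as the limit and -0.15 in SBP with the 99th percentile of Sham, and Dnajb1 in I/R became -0.0031 with the limit of each section. The cause was not tested. The summed small genes in I/R over Sham had log2 ratios of 0.64 without mitochondrial UMIs, 0.52 with TMM factors, 0.52 with median-of-ratios factors and 0.73 without the top 1% of spots (0.75 as reported). In SBP over I/R they had -0.33, -0.22, -0.22 and -0.37 under the same settings and -0.36 with equal weight for each spot (-0.38 as reported). In high over other spots the small sum of Sham was 0.58 and 0.77 with the 90th and 99th percentiles, 0.43 with Nppb in place of Ankrd1, 0.52 without mitochondrial UMIs and 0.66 with equal weights. The small sum of I/R was 1.25 and 1.11 with these percentiles, 1.196 with thinned Ankrd1, 1.09 with the limit of the section itself, 1.22 with Nppb, 1.04 without mitochondrial UMIs and 1.08 with equal weights. The small sum of SBP was 0.87 and 0.95 with these percentiles, 0.94 with its own limit, 0.996 with Nppb and 0.83 without mitochondrial UMIs. The Hspa1 sum in I/R was 0.28 with the 99th percentile, 0.11 with the limit of the section itself and 1.16 with Nppb, and in SBP 0.54 and 0.50 with the first 2 of these. Hspa1 over small genes in high over other spots of SBP was -0.41 with the 99th percentile. With TMM and with median-of-ratios factors, members called were 3 higher in I/R over Sham and 1 higher and 0 lower in SBP over I/R. With these factors, in the same order, 13.0% and 12.8% of all genes were higher in I/R over Sham. In SBP over I/R 4.14% and 4.205% of all genes were higher, and 8.48% and 8.40% lower. In high over other spots, members called higher were 3 in Sham with Nppb and 3 without mitochondrial UMIs, and 8 in I/R with the 90th percentile and 8 with Nppb. The shares of all genes under these settings are not given, so these counts stand without a background. The counts of other gene lists under TMM and median-of-ratios factors were added after seeing the data. No paired analysis was possible because 1 section stands for each condition, and no replicate could be left out. Depth limits the Hspa1 genes most, with 25 UMIs in the high spots of Sham.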

Other observations

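Other lists moved between the sections as follows. Immediate early genes (Fos, Jun, Egr1 and others) had 6 of 7 members higher in I/R than in Sham, with a median log2 ratio of 1.12 (23.2% of all genes were called higher), and 6 of 7 lower in SBP than in I/R, with a median of -1.04 (13.8% of all genes were called lower). With TMM factors these counts were 5 and 6, beside 13.0% and 8.48% of all genes. In Ankrd1-high over other spots 3, 1 and 2 of 7 were called higher in Sham, I/R and SBP, beside 28.3%, 13.6% and 16.6% of all genes. Of 10 clock genes with E-box or D-box elements, 9 were higher in SBP than in I/R (median 0.94, 1.95% of all genes called higher) and 1 was lower in I/R than in Sham (median -0.45, 3.49% of all genes called lower). With TMM factors these counts were 10 and 6 of 10, beside 4.14% and 9.12% of all genes. Of 5 Rev-erb-repressed clock genes 3 were lower in SBP than in I/R (median -0.70) and 1 was higher in I/R than in Sham. With TMM factors these were 2 and 0, beside 8.48% and 13.0% of all genes. Of the cold-induced genes, Rbm3 was at 99.2, 137 and 143 CPM in Sham, I/R and SBP, and Cirbp at 32.7, 24.2 and 31.4 CPM, with log2 ratios of I/R over Sham of 0.46 (0.39 to 0.54) and -0.44 (-0.58 to -0.29). Injury genes, a list that holds Ankrd1, were higher in 7 of 7 in I/R and 6 of 7 in SBP over Sham, the latter 4 of 7 with TMM factors. In SBP over Sham 5.31% of all genes were higher, and 4.01% with TMM factors.

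Blood markers summed to 2886, 4105 and 3860 CPM, endothelial markers to 720, 680 and 653 CPM and monocyte markers to 30.1, 85.9 and 39.9 CPM in Sham, I/R and SBP. Most of the endothelial sum was Fabp4, at 546, 494 and 487 CPM, and its markers did not move alike. Pecam1 was highest in I/R (47.3, 60.4 and 54.9 CPM), and Npr3 was highest in SBP (5.30, 3.64 and 10.8 CPM). T cell markers summed to 0.438, 0.728 and 0.878 CPM and B cell markers to 0.637, 1.39 and 0.601 CPM. In Ankrd1-high spots of Sham, blood markers stood at 887 against 3044 CPM in other spots, whereas in I/R they stood at 3408 against 4363 CPM.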
